A study of Mus musculus with 29 samples.

Results

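En1, En2, Fgf8, Fgf17, Fgf18, Wnt1 and Gbx2 are genes of the isthmic organizer, the band of signalling tissue at the border of midbrain and hindbrain. These 7 genes were chosen by symbol from the 25239 genes listed in each count table. All 7 had enough counts to be among the 15383 genes tested. The study profiled poly(A) RNA of brain tissue from mouse embryos at E11.5, in mid-gestation, to compare embryos lacking an enhancer with wild-type embryos. Its 8 RNA-seq libraries form 4 groups of 2: wild-type forebrain, forebrain with the hs267-853 knockout, wild-type midbrain, and midbrain with the hs654 knockout. Each library is a pool of dissected tissue from more than 1 sample of the same tissue and genotype, and the labels name neither the strain nor the extent of either deletion. Whether hs267-853 stands for 1 or 2 deleted elements was not established. The other 21 samples of the series, which are enhancer-capture Hi-C, were not analysed here.

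The isthmic organizer patterns midbrain and anterior hindbrain by secreting FGF8 and WNT1. FGF8 is made on the hindbrain side of the border and WNT1 on the midbrain side. The engrailed factors EN1 and EN2 are expressed across the border and help keep both signals on. GBX2 is a homeodomain factor of the hindbrain side that opposes OTX2, the factor of the midbrain side, and it is also known from the developing thalamus. FGF8, FGF17 and FGF18 form one subfamily of ligands. The same ligands are also made at the front of the forebrain, in the anterior neural ridge and the tissue that derives from it, which is a signalling centre for the telencephalon.

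In the RefSeq annotation of GRCm38.p6, the assembly behind mm10, En1 lies on chr1:120602487-120607991 and Gbx2 on chr1:89927962-89931176. En2 lies on chr5:28165696-28172190, Wnt1 on chr15:98789857-98793830, Fgf8 on chr19:45736491-45742941, Fgf17 on chr14:70636203-70642268 and Fgf18 on chr11:33116970-33147400. No other annotated gene overlaps 6 of these spans. Fgf17 is the exception: Gm38605 overlaps it, so reads in the overlap could be counted as ambiguous and not for Fgf17. Dmtn ends 154 bp from it, without overlap. Promoter sequence from RefSeq (GRCm38.p6) was matched for 4 of the 7 genes, namely En1, Fgf18, Wnt1 and Gbx2. The 250 bases before the annotated start are shown for all 4 genes matched, 5′ to 3′ on the strand of the gene. The 4 were set by which genes had an entry, not by their expression. En1, Wnt1 and Gbx2 were all higher in midbrain, while Fgf18 did not pass the test between tissues. Capitals mark matches, on either strand, to the E-box core CACGTG, to the box known as CCAAT, or to the GC-box core GGGCGG.
En1 (chr1:120602237-120602486, plus strand): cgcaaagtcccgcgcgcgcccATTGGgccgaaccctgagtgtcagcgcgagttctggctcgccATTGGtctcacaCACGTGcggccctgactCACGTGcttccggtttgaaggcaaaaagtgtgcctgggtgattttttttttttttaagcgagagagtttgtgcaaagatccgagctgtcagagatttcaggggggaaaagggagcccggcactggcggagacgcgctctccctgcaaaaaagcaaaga
Wnt1 (chr15:98789607-98789856, plus strand): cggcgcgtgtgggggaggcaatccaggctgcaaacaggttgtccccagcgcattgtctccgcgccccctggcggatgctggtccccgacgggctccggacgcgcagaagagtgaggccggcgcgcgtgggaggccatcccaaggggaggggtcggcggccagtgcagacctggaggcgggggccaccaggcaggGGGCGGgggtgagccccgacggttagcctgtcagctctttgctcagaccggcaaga
Gbx2 (chr1:89931177-89931426, minus strand): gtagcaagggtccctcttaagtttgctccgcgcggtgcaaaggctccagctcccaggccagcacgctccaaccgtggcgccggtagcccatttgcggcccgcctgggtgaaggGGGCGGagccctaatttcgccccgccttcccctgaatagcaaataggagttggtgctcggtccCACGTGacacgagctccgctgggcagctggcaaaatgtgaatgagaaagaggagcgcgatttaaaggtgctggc
Fgf18 (chr11:33147401-33147650, minus strand): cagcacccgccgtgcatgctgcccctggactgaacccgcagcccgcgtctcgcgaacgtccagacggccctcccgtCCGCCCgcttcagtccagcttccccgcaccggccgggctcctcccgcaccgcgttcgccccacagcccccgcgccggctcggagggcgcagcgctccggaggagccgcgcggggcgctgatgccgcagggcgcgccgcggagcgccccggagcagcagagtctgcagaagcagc

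All 4 windows were richer in CpG than the median promoter. The CG dinucleotide occurred 19 times in the En1 window, 23 times in Wnt1, 18 times in Gbx2 and 37 times in Fgf18, against a median of 6 over 32851 promoter windows of the same length. The E-box core CACGTG occurred 2 times in En1, at 175 and 158 bases before the start, and 1 time in Gbx2, at 74 bases. Of all windows, 6.02% held it. CCAAT occurred 2 times in En1, on the opposite strand, and 33.8% of windows held it. GGGCGG occurred 1 time each in Wnt1, Gbx2 and Fgf18, and 32.7% of windows held it. The TATA-box core TATAAA had no match in the 4 windows, and 12.4% of all windows held it. The homeodomain core TAATTA had none either, with 4.84% of all windows holding it. Neither did the TCF/LEF core CTTTGA, which 13.8% of all windows held. No 2 matches overlapped. None of the 6 motifs had a match in all 3 of the windows of En1, Wnt1 and Gbx2, and a match is a description of letters, not a site of binding.

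The total count over genes ranged from 9051632 to 18024406 per library. A gene without a count could hold up to 3 counts, or 0.170 to 0.328 CPM, the count relative to the TMM-adjusted library size, and this covers counting error only. The tissue labels held for markers: the telencephalic gene Emx1 had 52.7 to 58.4 CPM in the 4 forebrain libraries and 0.886 to 4.47 CPM in the 4 midbrain libraries, and Dlx2 had 51.6 to 81.3 CPM against 4.93 to 6.55 CPM. The hindbrain genes Hoxa2, Hoxb2, Hoxa3, Hoxb3 and Egr2 each had at most 0.479 CPM in any library. How much isthmic tissue the midbrain dissection included was not tested. In pooled bulk tissue, fewer cells of a type and less RNA per cell cannot be told apart. The labels do not say how the pools relate to litters, so p-values measure the spread between these pools.

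Set against midbrain, wild-type forebrain lacked or nearly lacked some of the 7 genes and shared others. En2, Wnt1, Gbx2 and En1 were lower in forebrain, Fgf17 was higher in forebrain, and Fgf8 and Fgf18 did not pass the test. At an adjusted p under 0.05 (edgeR quasi-likelihood test, Benjamini-Hochberg over all 15383 genes), 5 of the 7 were thus called, against 29.6% of all genes tested. Of these, 4 were lower in forebrain, against 15.3% of all genes, and 1 was higher, against 14.3%. The ranges of the libraries were apart for 6 of the 7, all but Fgf8, against 65.9% of all genes. The median log2 difference, forebrain minus midbrain, was -2.13 for the 7 genes and 0.0012 for all genes tested. The same comparison in the knockout libraries set hs267-853 forebrain against hs654 midbrain. Its group means come from other libraries than those of the wild type. The filter, the scaling and the estimate of spread come from all 8 libraries, so the 2 tests are not independent. There 6 of the 7 were called, against 29.4% of all genes. En1, En2, Wnt1 and Gbx2 were again lower in forebrain, against 14.8% of all genes, and Fgf8 and Fgf17 were higher, against 14.6%. The ranges were apart for 6 of the 7, all but Fgf18, against 64.4%. In both comparisons 11.8% of all genes were lower in forebrain and 10.1% were higher.

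**Figure D1:**
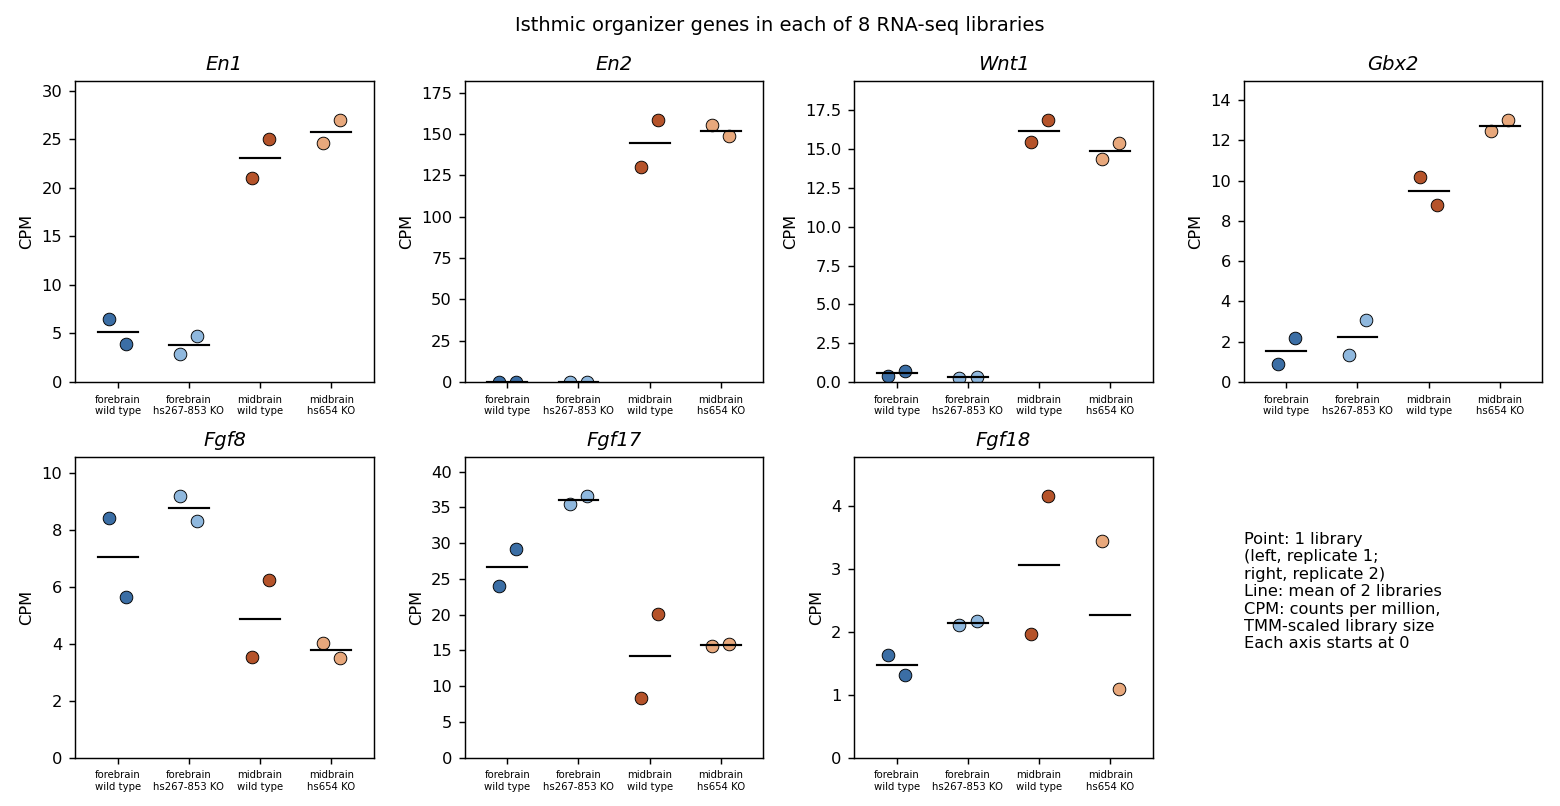
Level of each of the 7 genes in CPM (vertical axis, from 0, a separate scale per gene) in each of 8 libraries, grouped by tissue and genotype; points are libraries and lines are means of 2. En1, En2, Wnt1 and Gbx2 are higher in every midbrain library than in every forebrain library, while Fgf17 is higher in every forebrain library and Fgf8 and Fgf18 overlap between tissues.

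En2, the engrailed gene of the midbrain and cerebellar territory, had 0 counts in each of the 4 forebrain libraries. Wild-type midbrain held 130 and 158 CPM, and hs654 knockout midbrain 155 and 148 CPM. With 3 counts as the upper limit in the shallower forebrain library, En2 was at least 621-fold higher in wild-type midbrain than in wild-type forebrain, and at least 773-fold higher in the knockout libraries. It was the only one of the 7 genes with no count in forebrain.

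Wnt1, the ligand of the midbrain side, came next. Its wild-type libraries held 0.407 and 0.697 CPM in forebrain and 15.4 and 16.9 CPM in midbrain. The forebrain counts were 5 to 9 reads per library, above the 3 counts that an absent gene could hide but too few for a precise level. The log2 difference, forebrain minus midbrain, was -4.87 (SE 0.267, adjusted p = 2.93e-08 in edgeR) in the wild type and -5.57 (SE 0.289, adjusted p = 1.98e-08) in the knockout libraries.

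Gbx2 was lower in forebrain but present there in every library. Wild-type forebrain had 0.882 and 2.17 CPM, and knockout forebrain had 1.36 and 3.08 CPM. Midbrain levels were 10.2 and 8.79 CPM without the deletion and 12.5 and 13.0 CPM with it. The ranges of the tissues did not overlap. The log2 difference was -2.66 (SE 0.374, adjusted p = 0.000162 in edgeR) in the wild type and -2.54 (SE 0.344, adjusted p = 0.000117) in the knockout libraries. It passed with any 1 library left out, but its size rested on single forebrain pools: it was -3.41 without wild-type replicate 2 and -2.13 without wild-type replicate 1, and -3.21 and -2.04 in the knockout libraries without knockout replicate 2 and 1. Replicate 2 exceeded replicate 1 in both forebrain groups beyond counting error: the log2 ratio of replicate 1 to replicate 2 was -1.30 in the wild type (95% exact interval -2.37 to -0.30) and -1.18 in the knockout (-1.95 to -0.44).

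Gbx2 is known from thalamus and medial ganglionic eminence, so markers of both were read beside it. The thalamic genes Tcf7l2, Lhx9 and Olig3, which midbrain also expresses, summed to 84.7 and 90.3 CPM in wild-type forebrain, 110 and 116 CPM in knockout forebrain and 344 to 442 CPM in midbrain. All 3 were lower in forebrain in both comparisons, against 11.8% of all genes. Nkx2-1, Lhx6 and Lhx8 of the medial ganglionic eminence summed to 32.2 to 44.3 CPM in forebrain and 12.6 to 16.5 CPM in midbrain. The forebrain library with the most Gbx2, knockout replicate 2, had the highest thalamic sum and the lowest eminence sum, but single genes differed. Among forebrain libraries its Tcf7l2 (63.1 CPM) and Olig3 (13.1 CPM) were the highest and its Lhx9 (39.5 CPM) the lowest. Its Nkx2-1 was the lowest (20.8 CPM). Lhx6 (6.48 CPM) and Lhx8 (4.85 CPM) were lower in knockout replicate 1, at 6.18 and 3.06 CPM. The part of either tissue in the Gbx2 values was not tested.

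En1 was lower in forebrain too, and was detected in every library. Wild-type forebrain had 6.45 and 3.95 CPM and knockout forebrain 2.84 and 4.78 CPM, from 50 to 95 reads per library. Its midbrain levels were higher, 21.0 and 25.1 CPM for the wild type and 24.6 and 27.0 CPM with the deletion. The log2 difference was -2.13 (SE 0.232, adjusted p = 1.70e-05 in edgeR) in the wild type and -2.77 (SE 0.240, adjusted p = 2.10e-06) in the knockout libraries. En1 and En2 thus parted in forebrain, where En1 was read in every library and En2 in none.

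Across the 4 forebrain libraries, En1 had the same order as the amount of mesenchymal transcript. The cranial mesenchyme genes Col1a1, Col1a2, Col3a1, Twist1, Prrx1 and Foxc1 summed to 1979 and 1555 CPM in the wild-type forebrain pools, and to 1123 and 1730 CPM in those of the knockout. Their order, highest in wild-type replicate 1 and lowest in knockout replicate 1, was that of En1. Lmx1b, a factor of the isthmus that is also known from mesenchyme of the head, measured 24.9 and 19.3 CPM without the deletion and 5.73 and 18.0 CPM with it in forebrain, and its lowest library was the same. In midbrain the mesenchyme sum was 1274 to 1780 CPM, inside the forebrain range, but its genes did not all behave alike. Twist1 had 36.7 to 93.3 CPM in forebrain and 16.5 to 27.8 CPM in midbrain, and Prrx1 had 72.1 to 126 CPM against 23.7 to 33.8 CPM. These 2 of the 6 genes passed as higher in forebrain in both comparisons, against 10.1% of all genes. The other 4 passed in neither. The mean of En1 was 4.43-fold higher in wild-type midbrain than in wild-type forebrain. Surface epithelium genes (Epcam, Krt5, Krt8, Krt18 and Trp63) also differed, with a sum of 11.01 CPM for knockout forebrain replicate 1, 32.3 to 48.5 CPM for the other 3 forebrain libraries and 4.47 to 5.25 CPM for midbrain, where Krt5 had no count. The part of these tissues in the En1 values was not tested.

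**Figure D2:**
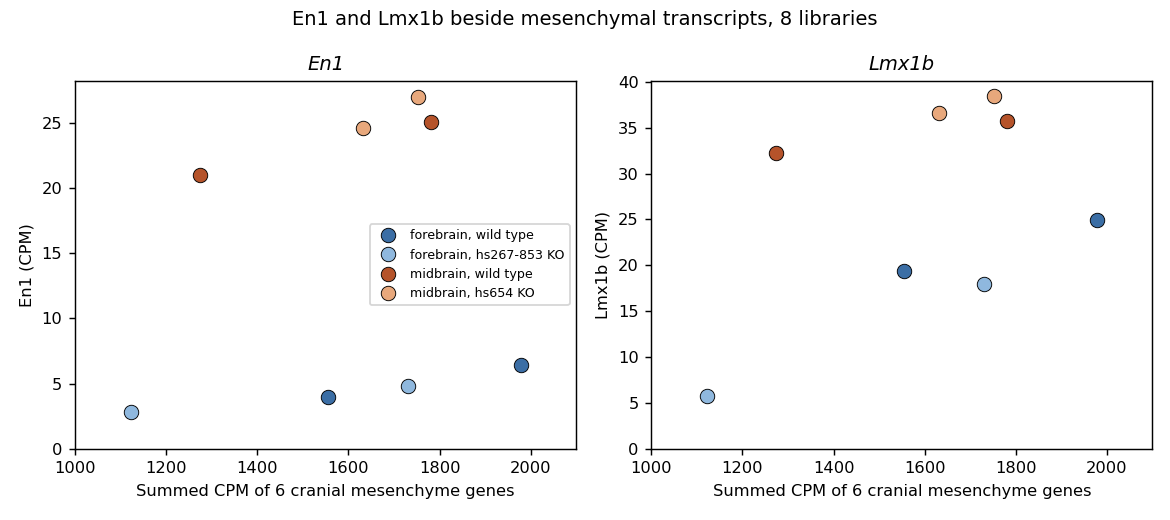
En1 (left) and Lmx1b (right) in CPM against the summed CPM of 6 cranial mesenchyme genes (horizontal axis, from 1000), 1 point per library, coloured by tissue and genotype. Among the 4 forebrain libraries, both genes are lowest at the lowest mesenchyme sum, 1123 CPM, and highest at the highest, 1979 CPM. All midbrain libraries lie higher at sums inside the forebrain range, although Twist1 and Prrx1 of the sum are lower in midbrain.

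The 3 ligands of the FGF8 subfamily behaved differently from these 4 genes. Fgf17 was higher in forebrain, where wild-type pools held 24.0 and 29.2 CPM and knockout pools 35.5 and 36.6 CPM. Wild-type midbrain held 8.29 and 20.0 CPM, and its knockout 15.7 and 15.8 CPM. The groups did not overlap. The log2 difference was 0.94 (SE 0.266, adjusted p = 0.0181 in edgeR) in the wild type and 1.19 (SE 0.265, adjusted p = 0.00411) in the knockout libraries. One library carried much of the wild-type value: without midbrain wild-type replicate 1 the log2 difference was 0.40 and did not pass (adjusted p = 0.101), and without midbrain wild-type replicate 2 it was 1.68. A Wald test in DESeq2 did not call it either (adjusted p = 0.136).

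Fgf8, the main organizer signal, measured 8.42 and 5.65 CPM in wild-type forebrain and 3.54 and 6.23 CPM in wild-type midbrain, and these groups overlapped. The log2 difference was 0.55 with a 95% interval of -0.052 to 1.15 (adjusted p = 0.161 in edgeR). Without midbrain wild-type replicate 1 it was 0.18, and without midbrain wild-type replicate 2 it was 1.00 and passed (adjusted p = 0.0381). In the knockout libraries Fgf8 was higher in forebrain, at 9.19 and 8.32 CPM against 4.04 and 3.50 CPM, a log2 difference of 1.21 (SE 0.291, adjusted p = 0.00699). The wild-type and knockout comparisons differ by the contrast of the knockout effects given below, which Fgf8 did not pass. Its midbrain values rested on 32 to 78 reads per library. Without midbrain knockout replicate 2 the knockout comparison gave 1.12 and an adjusted p of 0.0683.

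Fgf18, a ligand also known from mesenchyme, was the lowest of the 3 in reads, at 10 to 52 per library. It had 1.63 and 1.32 CPM in wild-type forebrain, 2.10 and 2.16 CPM in knockout forebrain, 1.96 and 4.15 CPM in wild-type midbrain and 3.44 and 1.09 CPM in knockout midbrain. Neither tissue comparison passed. The log2 difference was -1.02 (95% interval -2.10 to 0.059) in the wild type and -0.13 (-1.21 to 0.94) in the knockout libraries, so at this depth a 4-fold difference in the wild type is not outside the interval. Without a filter on low counts the wild-type difference passed, with an adjusted p of 0.0378 in edgeR. Without midbrain wild-type replicate 2 it shrank to -0.40 (adjusted p = 0.683).

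**Figure D3:**
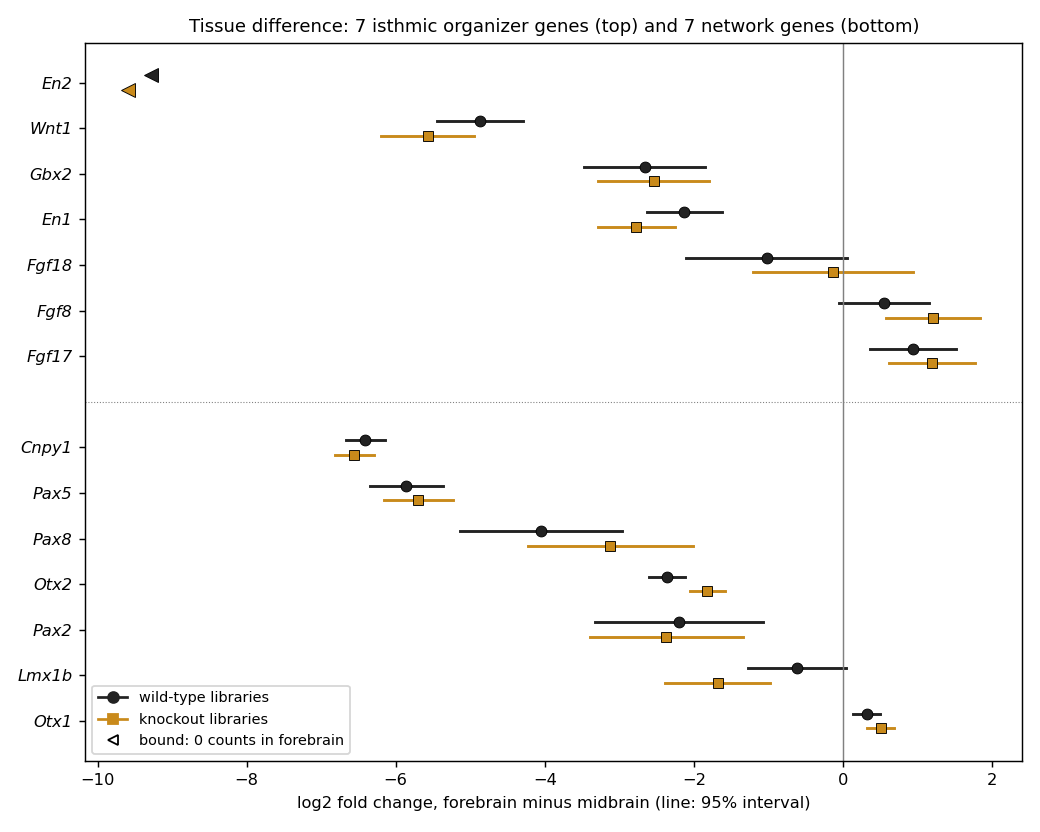
Log2 fold change, forebrain minus midbrain (horizontal axis), with its 95% interval, for the 7 organizer genes (top) and 7 genes of the isthmic network (bottom), in wild-type libraries (circles) and knockout libraries (squares); triangles for En2 mark the bound set by 3 counts. En2, Wnt1, Gbx2 and En1 lie left of 0 in both, and Fgf8 and Fgf17 lie right of 0, with the wild-type interval of Fgf8 crossing 0.

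The mix of the 3 ligands was compared within libraries, where scaling has no effect. Fgf8 made up 19.4% ± 3.89 of their joint reads in forebrain and 20.2% ± 3.97 in midbrain (SD, n = 4 libraries each, both genotypes). The difference of -0.778 percentage points was within the spread between libraries (exact permutation test, two-sided, p = 0.714). Without forebrain wild-type replicate 2 or midbrain wild-type replicate 1 its sign turned, to 0.481 and 1.06. With each gene's counts first divided by their mean over the 8 libraries, the difference was 8.83 points (exact permutation p = 0.0286, the smallest that 4 against 4 allows). Fgf18 held 3.64% to 4.78% of the joint reads in forebrain. In midbrain it held 14.2% and 13.6% in the wild type and 14.9% and 5.35% in the knockout, where the last value rests on 10 reads (95% exact interval 2.59% to 9.61%). The shares of Fgf17 were 70.5% to 80.7% in forebrain and 60.1% to 77.5% in midbrain. A share compares the same gene between libraries, and gene lengths differ, so it does not rank the ligands within a library.

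**Figure D4:**
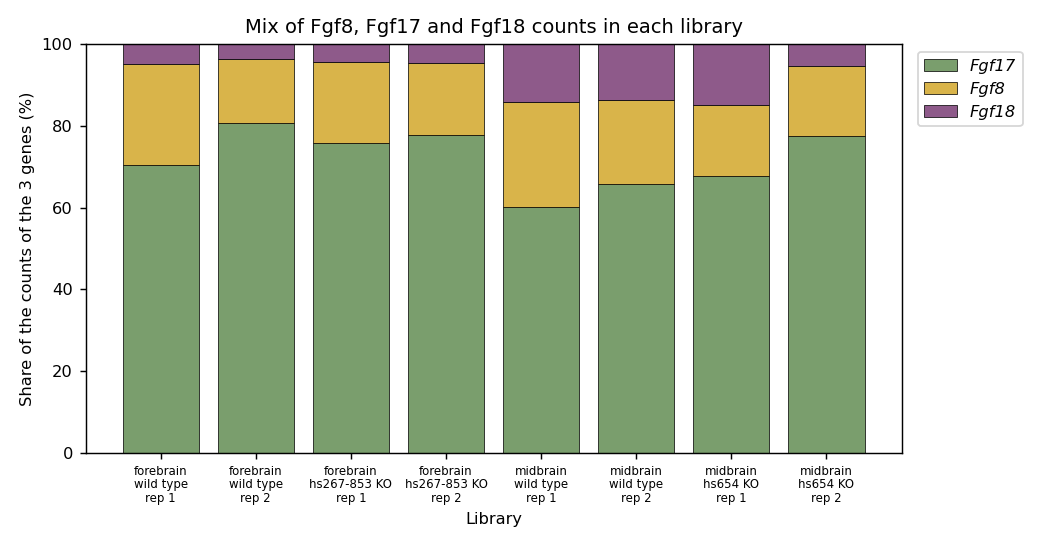
Share of Fgf17, Fgf8 and Fgf18 in their joint read count (vertical axis, percent) in each of 8 libraries (horizontal axis); each bar is 1 library. Fgf18 takes 3.64% to 4.78% in the 4 forebrain libraries and 13.6% to 14.9% in 3 midbrain libraries, with midbrain knockout replicate 2 at 5.35%.

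Replicate pools of wild-type midbrain differed most in the FGF ligands. Replicate 1 held less than replicate 2 of Fgf17 (log2 ratio -1.27, 95% exact interval -1.59 to -0.96), Fgf18 (-1.08, -1.77 to -0.41) and Fgf8 (-0.81, -1.34 to -0.30). En2 and En1 were lower in the same pool by less, with log2 ratios of -0.28 and -0.26. The intervals of Wnt1 (-0.13) and Gbx2 (0.21) included 0. These gaps went beyond counting error for 5 of 7 genes, and the median absolute log2 ratio over all genes tested was 0.12 in this group. In the same pool the erythroid gene Hbb-y, an embryonic globin, had 3644 CPM, against 1786 to 1951 CPM in the other 3 midbrain libraries. Hba-x had 1110 CPM against 564 to 684 CPM, and the mesenchyme sum was 1274 CPM against 1631 to 1780 CPM. Their part in the FGF values was not tested.

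Most of the 7 other genes of the isthmic network were also lower in forebrain. Of Pax2, Pax5, Pax8, Lmx1b, Otx2, Otx1 and Cnpy1, 5 were lower and 1 was higher in wild-type forebrain, against 15.3% and 14.3% of all genes, with a median log2 difference of -2.36. In the knockout libraries 6 were lower and 1 was higher, against 14.8% and 14.6% of all genes. The largest differences were those of Cnpy1, a gene that codes for a regulator of FGF signalling, and Pax5, a paired-box factor of the organizer. Cnpy1 had 1.97 and 1.63 CPM in wild-type forebrain and 149 and 160 CPM in wild-type midbrain, a log2 difference of -6.41 (SE 0.121). Pax5 had 1.02 and 1.39 CPM in forebrain and 57.8 and 82.2 CPM in midbrain (-5.86, SE 0.228). Otx2, the counterpart of GBX2 on the midbrain side, was present in forebrain at 44.5 and 59.4 CPM and reached 279 and 253 CPM in midbrain (-2.36, SE 0.110). Otx1 was the member higher in forebrain, by 0.32 (SE 0.0827), and Lmx1b passed in the knockout libraries (-1.68, SE 0.325) but not in the wild type (-0.61, adjusted p = 0.154 in edgeR).

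Genes through which FGF signals act were read next. Of 11 receptors and response genes, 4 were higher in wild-type forebrain and 0 were lower, and 7 did not pass. Of all genes tested, 14.3% were higher and 15.3% lower. The median log2 difference was 0.15, against 0.0012 for all genes tested. In the knockout libraries 5 were higher and 0 lower, against 14.6% and 14.8% of all genes, with a median of 0.36 against 0.017. Spry1, a feedback inhibitor of receptor tyrosine kinase signalling, measured 20.4 and 27.3 CPM in midbrain and 41.6 and 47.5 CPM in forebrain of the wild type (log2 difference 0.91, SE 0.153). Dusp6, the phosphatase that curbs ERK, differed by 0.78 (SE 0.140). Etv5 and the receptor gene Fgfr1 were also higher in forebrain, by 0.71 and 0.49. Etv4, Spry2 and Spry4 did not pass, with differences of 0.0005, -0.24 and -0.0093.

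Other genes of the anterior signalling centre and telencephalon were read beside the ligands. Of 6 such genes, 4 were higher and 1 was lower in wild-type forebrain, against 14.3% and 15.3% of all genes. In the knockout libraries 4 were higher and 0 lower, against 14.6% and 14.8%. The transcription factor genes Emx2, Sp8 and Six3 had wild-type log2 differences of 2.91 (SE 0.152), 1.86 (SE 0.104) and 0.82 (SE 0.173). Each was higher in forebrain in both tissue comparisons, against 10.1% of all genes. Fgf15, an FGF of another subfamily that midbrain and diencephalon also make, was lower in forebrain, at 22.5 and 36.1 CPM in wild-type forebrain and 50.0 and 53.6 CPM in wild-type midbrain (-0.83, SE 0.158). It did not pass in the knockout libraries (-0.34, adjusted p = 0.123 in edgeR). Fgf3 stayed at or below 1.25 CPM in all 8 libraries. Of 4 genes that share the dorsal midline with Wnt1, Wnt3a (1.62) and Msx1 (1.49) were higher in wild-type forebrain, against 14.3% of all genes. Lmx1a (-1.41) and Gdf7 (-1.47) were lower, as Wnt1 was, against 15.3% of all genes.

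The nearest tested genes on either side of each member were also read, chosen by position after values had been seen. Cnpy1 is the next tested gene after En2, 28.6 kb away, and both were nearly confined to midbrain. Insig1 on the other side of En2, 87.03 kb away, differed by -0.32. Wnt10b, 11.7 kb from Wnt1, went the other way at very low level: its means were 0.751 ± 0.186 CPM for forebrain and 0.0399 ± 0.0565 CPM for midbrain of the wild type (SD of 2 libraries). It passed in the wild type (adjusted p = 0.017 in edgeR) and not in the knockout libraries (adjusted p = 0.0854). Ddn, 9.95 kb beyond the other end of Wnt1, was higher in midbrain like Wnt1 (0.305 ± 0.432 against 5.10 ± 0.211 CPM). C1ql2, 259 kb from En1, and Celrr, 479 kb from it on the other side, were both low and midbrain-biased, at 1.62 and 1.38 CPM in wild-type midbrain. Npm3, 4.79 kb from Fgf8, was higher in forebrain by 0.46 in the wild type and 0.71 in the knockout libraries. Dmtn, 154 bp from Fgf17, went against it, with log2 differences of -0.54 in the wild type and -0.53 in the knockout libraries. Npm1, beside Fgf18, was higher in forebrain by 0.32 and 0.38, while Agap1, beside Gbx2, was lower like Gbx2 (-0.54 and -0.52). The remaining neighbours, Fbxw4, Npm2, Fbxw11 and Ackr3, passed in neither comparison.

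The genes most like each member were taken as those with the smallest root-mean-square distance between centred log2 CPM profiles over the 8 libraries, among 14320 other genes with a mean of at least 1 CPM. The libraries fall into 2 tissues, so this mostly ranks genes by their tissue difference. For En1 these were Nav2 (distance 0.15), Hs3st5 (0.23) and Tal1 (0.24), against a median distance of 1.28. For Wnt1 they were Prrxl1 (0.29), Asic4 (0.29) and Nkx1-2 (0.30). Tcf7l2, the Wnt effector of the thalamic list, was the nearest gene to Gbx2 (0.28), followed by Snhg11 and Gpr17. Fgf8 had Ccdc102a (0.19) and Gm36210 (0.19), and Fgf17 had Xylb (0.19) and Gm5532 (0.23). Fgf18 was nearest to Snord34 (0.27), Arhgap30 (0.29) and Sgms2 (0.29). The genes nearest to En2 lay farther off, with Foxa2 at 1.39 and Barhl1 at 1.56, against a median of 5.00.

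Midbrain lacking hs654 was compared with wild-type midbrain to look for genes changed by the loss of that enhancer. None of the 7 passed at an adjusted p under 0.05 in edgeR (0 of 7, with 0% of all genes tested called), and 0 of 7 had an unadjusted p under 0.05, against 3.96% of all genes. DESeq2 and limma-voom also called 0 of 7. Ranges of the genotypes were apart for 2 of the 7, with Gbx2 above and Wnt1 below the wild type, against 36.7% of all genes. The log2 fold changes ranged from -0.37 for Fgf18 to 0.42 for Gbx2, with a median of 0.077 against -0.0009 for all genes tested. En2 had the narrowest interval of the 7. Its mean was 144 ± 19.8 CPM without the deletion and 152 ± 4.78 CPM with it (SD of 2 libraries), a log2 fold change of 0.077 with a 95% interval of -0.13 to 0.28. For Wnt1 the interval was -0.50 to 0.26, and for Gbx2 it was -0.23 to 1.07. The intervals of Fgf8 (-1.02 to 0.32), Fgf17 (-0.44 to 0.80) and Fgf18 (-1.42 to 0.69) were wide, so a change of 1.5-fold was not excluded for any of the 3 ligands.

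In forebrain with the hs267-853 knockout, none of the 7 passed (0 of 7 in edgeR, with 0.013% of all genes called), and 0 of 7 had an unadjusted p under 0.05, against 4.78% of all genes. DESeq2 and limma-voom called 0 of 7 too. The groups did not overlap for 3 of 6 genes with counts, namely Fgf17 and Fgf18 above and Wnt1 below the wild type, against 31.1% of all genes. Fgf17 went from 26.6 ± 3.64 CPM without the deletion to 36.1 ± 0.769 CPM with it (SD of 2 libraries), a log2 fold change of 0.44 with a 95% interval of -0.089 to 0.97. The log2 fold change was 0.31 for Fgf8 (-0.25 to 0.87) and 0.52 for Fgf18 (-0.57 to 1.62). It was -0.48 for En1 (-1.07 to 0.12), 0.54 for Gbx2 (-0.39 to 1.48) and -0.82 for Wnt1 (-1.87 to 0.24). En2 had 0 counts in both groups and allows no fold.

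**Figure D5:**
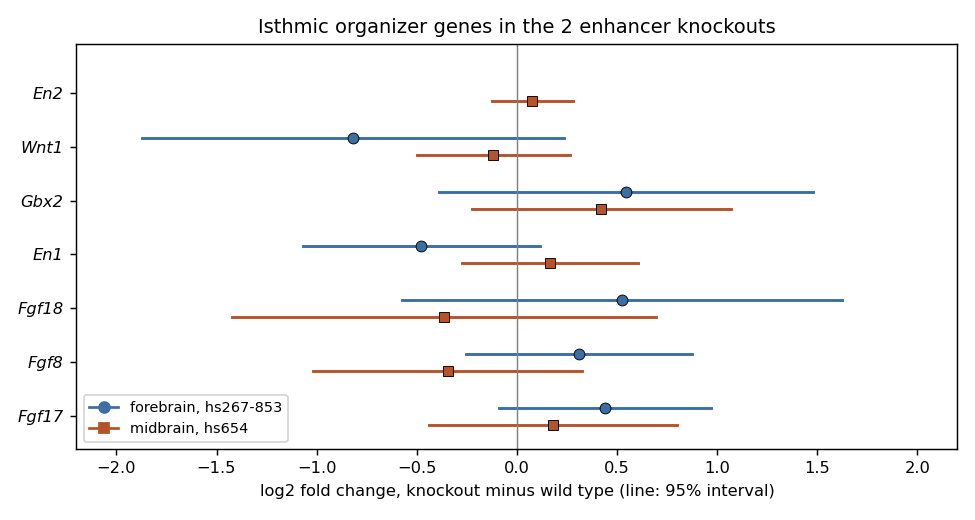
Log2 fold change, knockout minus wild type (horizontal axis), with its 95% interval, for the 7 genes in forebrain with the hs267-853 knockout (circles) and midbrain with the hs654 knockout (squares). Every interval includes 0, and En2 has no forebrain value because it had 0 counts there.

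The difference between the knockout effects, midbrain minus forebrain, was tested directly. Deletion and tissue differ together in it, and the same contrast compares the tissue difference of the wild type with that of the knockout libraries. None of the 7 genes passed in edgeR (0 of 7, with 0.0065% of all genes called), and 0 of 7 had an unadjusted p under 0.05, against 4.02% of all genes. DESeq2 and limma-voom called 0 of 7 as well. The value for Fgf8 was -0.66 (95% interval -1.53 to 0.22). For En1 it was 0.64 (-0.096 to 1.38), for Wnt1 0.70 (-0.41 to 1.82) and for Fgf18 -0.89 (-2.41 to 0.64).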

How the data were processed

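Raw counts per gene symbol, one table per library, are the values the authors deposited. The submitters' processing notes name STAR, HTSeq, DESeq2 and mm10 without roles or versions. The annotation and the strand setting are not given in the sources used here. The 5 closing rows that name no gene were left out of library sizes and tests. Genes took 40.7% to 44.1% of the counts in genes, outside features and in ambiguous positions. From the deposited counts, edgeR 4.0.16 in R 4.3.3 removed low genes (filterByExpr), scaled by TMM (factors 0.978 to 1.01) and fitted quasi-likelihood models of the 4 group means to all 8 libraries, which leaves 4 residual degrees of freedom. Standard errors and 95% intervals come from the F statistic. limma 3.58.1 and DESeq2 1.42.0 served as alternatives and SciPy 1.17.1 for the exact permutation test. The tests were tested on simulated data. Members, lists and tests were chosen with earlier results of these data known. Named genes were the 7 members, the isthmic network, the 2 largest rises and falls called per other list (with a few list genes added after their values were seen), and the 3 genes nearest in pattern. Replicate counts differed by more than sampling noise in all 4 groups (chi-square divided by its degrees of freedom, 3.75 to 7.74); no library was counted 2 times. Promoter and gene tables are RefSeq's. Some list genes are not reported here.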

Additional observations from a re-analysis of the deposited data

How the results depend on the processing

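Alternatives were RLE or upper-quartile scaling, no filter or a mean of at least 50 counts, DESeq2, limma-voom, a test against 1.5-fold, the 4 compared libraries alone, a replicate block, and each library left out. En1, En2, Wnt1 and Gbx2 kept their direction and passed in both tissue comparisons under each alternative run. Of the 7 genes, 4 to 6 were called between tissues, and 0 in either knockout or in the difference of effects. Numbers of all genes called moved more: a test against 1.5-fold gave 1086 and 1026 between tissues, for 4548 and 4523. With single libraries left out these 2 numbers ranged from 2816 to 5285 and from 2810 to 4358. No filter gave 22, 161 and 111 in hs654, hs267-853 and their difference, for 0, 2 and 1. With single libraries left out those 3 ranged from 0 to 8, 1 to 209 and 0 to 64. DESeq2 gave 12 and 4 in the last 2, and the 4 compared libraries alone gave 1 in each knockout. Under the replicate block 5 and 6 of the 7 genes were called between tissues and 0 in the other contrasts, as without it. Deviations of same-numbered libraries from their group means had correlations of -0.026 to 0.067 over the genes tested. With 2 libraries per group this cannot exclude that the numbers pair libraries.

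Signs that turned belong to genes not called. Fgf18 between tissues in knockout libraries was 0.03 in limma-voom. The other turns came with single libraries left out, where it ranged from -0.69 to 0.94 (highest without midbrain knockout replicate 1). In hs654, En2 then ranged from -0.06 to 0.22 and Fgf17 from -0.35 to 0.92 (both lowest without midbrain wild-type replicate 1). Fgf8 ranged from -0.71 to 0.10 and Fgf18 from -1.45 to 0.25 (both highest without midbrain wild-type replicate 2), and Fgf18 was 0.19 without midbrain knockout replicate 2. In hs267-853, Gbx2 ranged from -0.13 (without forebrain knockout replicate 2) to 1.30. In the difference of effects, Fgf17 ranged from -0.79 to 0.48 (highest without midbrain wild-type replicate 2) and Gbx2 from -0.88 to 0.55, with 0.41 and 0.55 without forebrain wild-type replicate 1 and forebrain knockout replicate 2. Fgf8 passed between wild-type tissues, at 1.00, without midbrain wild-type replicate 2. Fgf17 also missed the threshold there without forebrain wild-type replicate 2 (adjusted p = 0.121), and in the knockout libraries without midbrain knockout replicate 1 (0.0533). Against 1.5-fold the adjusted p was 0.316 and 0.0715 for Fgf17 in the wild-type and knockout libraries and 0.0958 for Fgf8 in the latter. The minimum of 50 counts removed Fgf18. The Fgf8 share of the reads of the 3 ligands differed by -0.778 points, by -2.54 to 1.06 with single libraries left out, and by 8.83 (exact p = 0.0286, the smallest possible) with counts divided by each gene's mean, which gives Fgf18 more weight. The causes were not tested.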
